A study of Mus musculus with 4 samples.

Results

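The genes that make and package GABA and glutamate were followed from progenitors to newborn neurons in the embryonic mouse forebrain. They were chosen by symbol, as 6 of the 43346 features of the count tables: Gad1, Gad2, Slc32a1, Slc17a6, Slc17a7 and Slc18a2. The data were droplet (10x Genomics) single-cell counts from wild-type C57BL/6 embryos at E12.5 (days of development), with 1 library each from the cortex (CTX), the lateral (LGE), the medial (MGE) and the caudal ganglionic eminence (CGE). Tissue was pooled over embryos, none of the groups carried a transgene or a treatment, and no region had a second library. Differences between regions were therefore not tested, and their intervals (95%, exact) cover counting error only. The labels describe a sort for live cells, while the methods of the study describe sorting for the reporter mice, which are not analysed here. Whether these libraries were sorted was not settled.

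The ganglionic eminences line the ventral forebrain and give rise to GABAergic neurons, while the dorsal wall, the cortex, makes glutamatergic neurons. Gad1 and Gad2 encode the glutamate decarboxylases (GAD67 and GAD65) that turn glutamate into GABA, and Slc32a1 encodes the transporter (VGAT) that loads GABA into synaptic vesicles. Slc17a6 (VGLUT2) and Slc17a7 (VGLUT1) load glutamate into vesicles, and Slc18a2 (VMAT2) loads monoamines such as dopamine and serotonin. Progenitors next to the ventricle express the intermediate filament gene Nes (Nestin), and young neurons express Dcx (doublecortin).

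On GRCm38 the members lie on chromosomes 2, 7 and 19, all on the plus strand. Gad1 spans chr2:70553072-70602014, Gad2 spans chr2:22622205-22693874 and Slc32a1 spans chr2:158610767-158615748. Slc17a6 spans chr7:51622006-51671119, Slc17a7 spans chr7:45163949-45176142 and Slc18a2 spans chr19:59260896-59296012. Gad1, Slc32a1 and Slc18a2 each overlap an annotated gene on the opposite strand (Gad1os, Gm14205 and Gm29261). Whether reads were counted by strand is not given in the sources used here, so a part of these counts could belong to the partner.

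The promoters of the members are shown because the 3 GABA genes are compared below as a group that came on together, and the 2 glutamate transporters as a group that did so elsewhere. Each sequence holds 300 bases of RefSeq sequence (GRCm38.p6, plus strand, 5′ to 3′) around the annotated start of transcription, and capitals mark matches on either strand to the E-box CANNTG (bound by basic helix-loop-helix factors), the homeobox core TAATTA, the TATA motif TATAAA and the cAMP response element TGACGTCA. For Slc17a6 the first of its 2 annotated promoters is printed.
Gad1, chr2:70561879-70562178: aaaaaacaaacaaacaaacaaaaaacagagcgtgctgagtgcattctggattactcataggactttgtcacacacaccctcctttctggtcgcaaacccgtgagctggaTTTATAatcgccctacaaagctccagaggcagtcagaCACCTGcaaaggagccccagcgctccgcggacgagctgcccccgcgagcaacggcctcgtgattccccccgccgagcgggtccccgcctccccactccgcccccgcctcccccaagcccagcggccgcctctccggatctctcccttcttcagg
Gad2, chr2:22622077-22622376: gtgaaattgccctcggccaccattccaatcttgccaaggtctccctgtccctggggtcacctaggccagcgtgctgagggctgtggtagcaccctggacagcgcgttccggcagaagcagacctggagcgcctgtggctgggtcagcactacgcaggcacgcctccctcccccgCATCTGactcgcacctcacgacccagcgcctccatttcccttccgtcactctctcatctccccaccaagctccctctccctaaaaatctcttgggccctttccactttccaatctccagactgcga
Slc32a1, chr2:158610508-158610807: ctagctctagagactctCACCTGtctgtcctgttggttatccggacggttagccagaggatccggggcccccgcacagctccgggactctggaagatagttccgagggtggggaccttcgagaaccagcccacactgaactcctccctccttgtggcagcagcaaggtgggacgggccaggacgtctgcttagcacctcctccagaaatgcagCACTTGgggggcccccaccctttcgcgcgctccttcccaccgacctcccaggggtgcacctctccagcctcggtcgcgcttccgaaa
Slc17a6, chr7:51621580-51621879: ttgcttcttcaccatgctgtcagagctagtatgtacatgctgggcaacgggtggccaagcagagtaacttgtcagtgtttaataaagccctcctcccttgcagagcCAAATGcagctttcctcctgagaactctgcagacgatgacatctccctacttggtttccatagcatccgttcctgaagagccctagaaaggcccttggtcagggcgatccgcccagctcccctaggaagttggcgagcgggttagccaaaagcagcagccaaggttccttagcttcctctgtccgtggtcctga
Slc17a7, chr7:45163671-45163970: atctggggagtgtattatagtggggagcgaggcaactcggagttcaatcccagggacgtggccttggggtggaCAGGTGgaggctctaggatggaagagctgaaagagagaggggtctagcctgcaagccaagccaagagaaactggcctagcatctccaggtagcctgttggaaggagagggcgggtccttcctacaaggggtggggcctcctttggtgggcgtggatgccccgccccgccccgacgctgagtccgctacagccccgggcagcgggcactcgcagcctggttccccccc
Slc18a2, chr19:59260628-59260927: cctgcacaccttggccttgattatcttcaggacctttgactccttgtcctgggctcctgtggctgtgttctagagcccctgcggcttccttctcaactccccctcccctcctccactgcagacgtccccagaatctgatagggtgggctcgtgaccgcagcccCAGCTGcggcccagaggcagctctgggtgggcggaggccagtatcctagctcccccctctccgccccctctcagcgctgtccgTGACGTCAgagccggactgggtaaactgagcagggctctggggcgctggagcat
Every one of these windows held an E-box match, as did 72.3% of the 32851 promoters in the table. The TATA motif was found in the Gad1 window, where it reads TTTATA on the printed strand, and in 13.6% of all promoters. The cAMP response element was found in the Slc18a2 window and in 1.79% of all promoters. The homeobox core was in none of the 6 printed windows, was present in the second Slc17a6 promoter, and was found in 5.29% of all promoters. These matches describe the letters in the windows and were not linked to any binding.

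The libraries held between 4301 and 6953 barcodes, and after the filters 3136 to 4610 cells remained with a median of 6939 to 8246 UMIs (unique molecular identifiers) per cell. Library pairs shared 4 to 15 barcodes. Cells were called high-Nestin or high-Dcx where ln(1 + UMIs per 10000) of Nes or Dcx alone was above 1.5. CTX gave 842 high-Nestin and 778 high-Dcx cells, LGE 573 and 1990, MGE 499 and 2123, and CGE 159 and 2245. High-Dcx cells grouped by the members held lineage markers. Of CTX cells with glutamate genes only, 528 of 528 held a UMI of the cortical glutamatergic list. Of cells with GABA genes only, 85.7% in LGE held Dlx5 and 91.7% in MGE held Nkx2-1, Lhx6 or Lhx8. These shares check the region labels only in part. In CGE, 65 of 66 cells with glutamate genes only held the cortical list. Of CGE cells with GABA genes only, 82.3% held Dlx5 and 30.5% held Nkx2-1, Lhx6 or Lhx8.

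In the 3 eminences all 3 GABA genes were near their lowest level in high-Nestin cells and came on strongly in high-Dcx cells. Levels are counts-per-million (CPM) of the UMIs summed over a class. Gad2 went from 84.6 to 648 CPM in LGE, from 20.6 to 481 CPM in MGE and from 24.8 to 494 CPM in CGE. Gad1 went from 5.29 to 99.9 CPM in LGE, from 3.72 to 185.5 CPM in MGE and from 4.13 to 155.9 CPM in CGE. Slc32a1 went from 19.5 to 201 CPM in LGE, from 8.46 to 223.9 CPM in MGE and from 8.27 to 222.1 CPM in CGE. For each of these genes the high-Nestin levels of the 3 libraries all lay below the high-Dcx levels, with no overlap. The share of all genes that separated in this way was not counted, so nothing is read from it. Cells low for both Nes and Dcx lay in between, for example with Gad2 at 365.4 CPM in LGE and at 197.1 and 209.7 CPM in MGE and CGE.

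**Figure D1:**
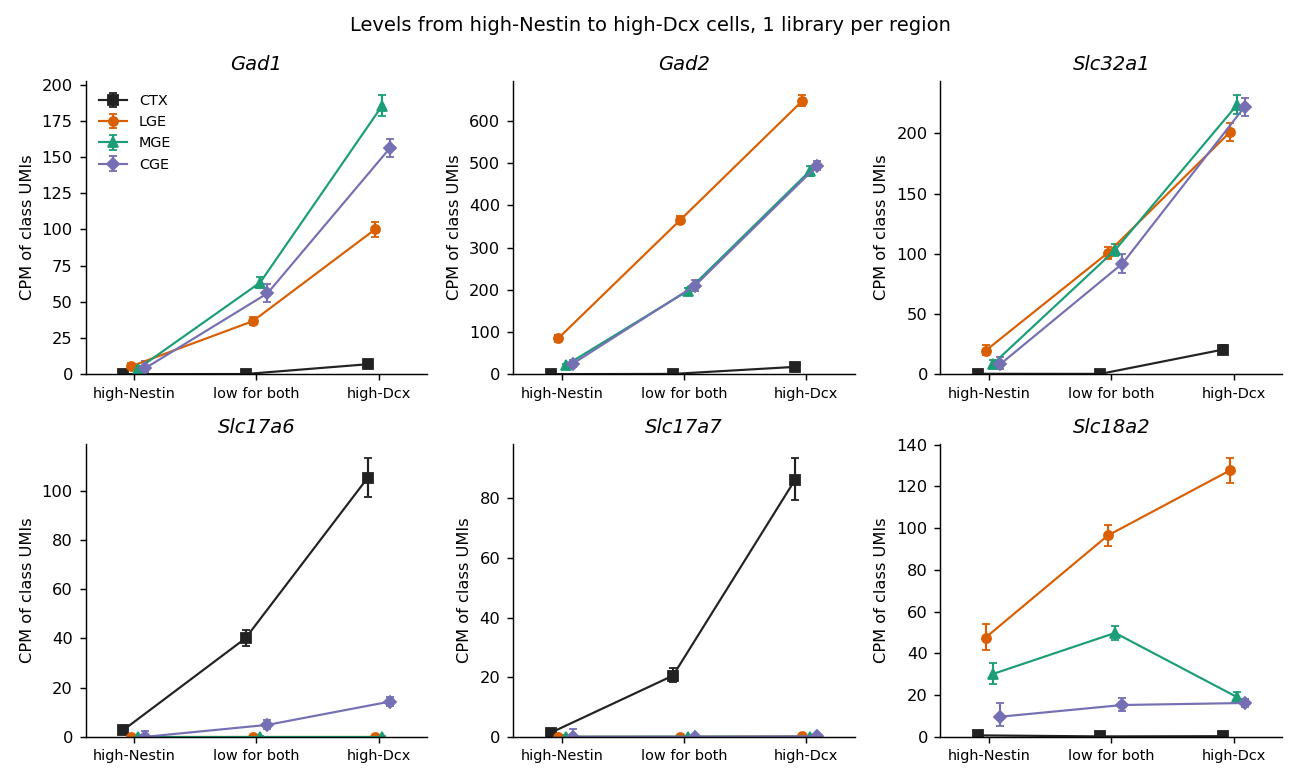
Level of each gene (y axis, CPM of the UMIs summed over a class, from 0) in high-Nestin cells, cells low for both genes and high-Dcx cells (x axis) of the 4 libraries; points are single libraries, bars are exact Poisson 95% intervals. Gad1, Gad2 and Slc32a1 are highest in the high-Dcx cells of the 3 eminences, Slc17a6 and Slc17a7 in those of CTX (105 and 86.3 CPM), and Slc18a2 in those of LGE (127.7 CPM).

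The class difference was tested with the 3 eminence libraries as replicates, each of another region, in edgeR's quasi-likelihood test with the library as a block. Gad1 rose by a log2 fold change of 5.06 (SE 0.258, edgeR adjusted p = 1.17e-04), Slc32a1 by 4.20 (SE 0.286, adjusted p = 2.40e-04) and Gad2 by 3.92 (SE 0.327, adjusted p = 4.09e-04), each in 3 of 3 libraries. Slc18a2 had a log2 fold change of 0.58 (SE 0.427, adjusted p = 0.287). Thus 3 of the 4 members that passed the filter on low counts rose, where 27.7% of the 12916 genes tested did. Slc17a6 and Slc17a7 did not pass that filter in the eminences.

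The eminences differed among themselves in which GABA gene was higher. In high-Dcx cells Gad1 was highest in MGE, with a ratio of CPM of 1.86 to LGE [1.74 to 1.98] and 1.19 to CGE [1.12 to 1.26]. Gad2 had the opposite order, with LGE above MGE by a ratio of 1.35 [1.30 to 1.39] and above CGE by 1.31 [1.27 to 1.35]. CGE and MGE did not separate for Gad2 (ratio 1.03 [0.993 to 1.06]) or Slc32a1 (MGE over CGE, 1.01 [0.96 to 1.06]). Among progenitors the LGE level of Gad2 stood apart, at 4.10 times that of MGE [3.29 to 5.15] and 3.41 times that of CGE [2.42 to 4.94]. Slc32a1 in LGE progenitors was 2.31 times its MGE level [1.59 to 3.41], whereas the Gad1 ratio of 1.42 had an interval that included 1 [0.751 to 2.76].

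Dividing and postmitotic Dcx cells were then separated, to see at which step the genes came on. The VZ (ventricular zone) class held cells with Nes above 1.5, other than those that also met the SVZ gate. The SVZ (subventricular zone) class held Dcx cells, with Nes at or below 1.5, with Mki67 and Ccnd2 but little Mapt and Rbfox3, and the MZ (mantle zone) class held Dcx cells with little Nes, Hes5, Mki67, Ccnd1 and Ccnd2. No member was used in these gates. The SVZ cells were deeper, with medians of 9030, 9129 and 10465 UMIs in LGE, MGE and CGE, against 5894, 5914 and 6312 in MZ cells. As the MZ gate rests on low values, a shallow dividing cell whose gate genes were missed could pass it. In LGE, Gad2 was at 106 CPM in VZ, 477.5 CPM in SVZ and 778 CPM in MZ cells. In MGE the 3 levels of Gad2 were 30.7, 267.7 and 597 CPM, and in CGE 42.6, 316.6 and 522 CPM. In each eminence the ratio of Gad2 was larger at the first step, into cells that still expressed Mki67, than at the next. It was 4.51 [4.09 to 4.97] and then 1.63 [1.53 to 1.74] in LGE, 8.72 and 2.23 in MGE, and 7.43 and 1.65 in CGE.

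The step from VZ to SVZ was called for all 4 members tested, where 18.1% of the 11642 genes tested were higher (2105 genes, and 1355 without LGE). Gad1 rose by 3.34 on the log2 scale (SE 0.271, edgeR adjusted p = 2.42e-05), Slc32a1 by 2.98 (SE 0.206, adjusted p = 1.10e-05), Gad2 by 2.76 (SE 0.218, adjusted p = 2.12e-05) and Slc18a2 by 1.88 (SE 0.380, adjusted p = 0.00406). The size of this step depended on the gate: with a limit of 1.0 on Nes and Dcx it was 1.63 for Gad1, 1.55 for Gad2, 1.69 for Slc32a1 and 1.53 for Slc18a2, and with a limit of 2.0 it was 6.51, 4.08, 4.45 and 2.52. From SVZ to MZ, Gad1 rose by a further 0.84 (SE 0.206, edgeR adjusted p = 0.00795), Gad2 by 0.81 (SE 0.195, adjusted p = 0.00696) and Slc32a1 by 0.80 (SE 0.171, adjusted p = 0.00372), so 3 of 4 members were higher where 23.0% of all genes tested were (2676 genes, and 1741 without LGE). The remaining one, Slc18a2, fell by 3.20 (SE 0.393, adjusted p = 1.22e-04), where 22.8% of the genes were lower.

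**Figure D2:**
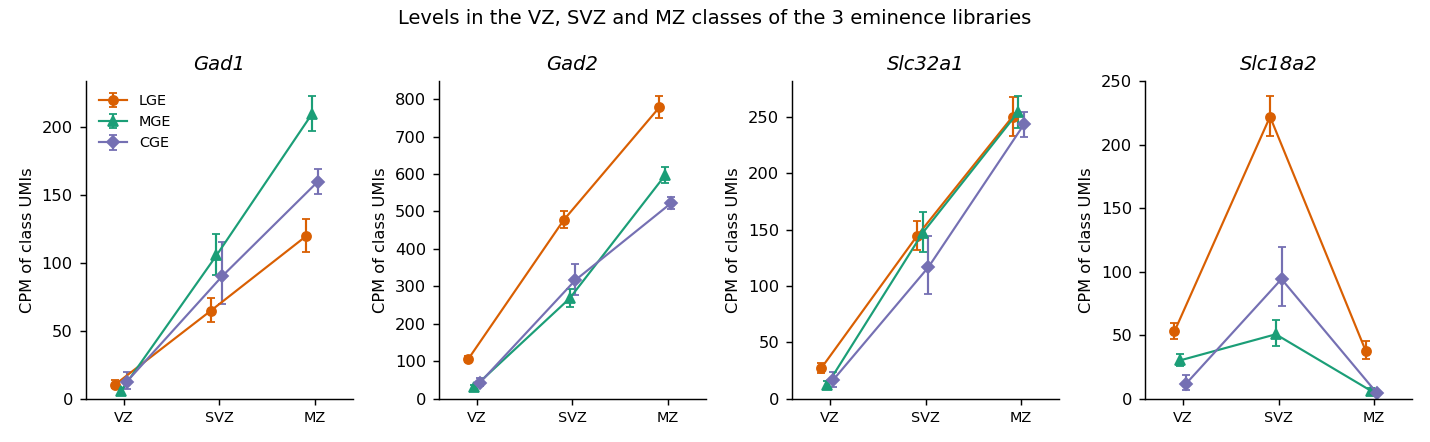
Level (y axis, CPM of class UMIs, from 0) of Gad1, Gad2, Slc32a1 and Slc18a2 in the VZ, SVZ and MZ classes (x axis) of LGE, MGE and CGE, 1 library each; bars are exact Poisson 95% intervals. The 3 GABA genes climb at each step in every library, while Slc18a2 peaks in SVZ cells (222.1, 50.8 and 94.3 CPM) and is lowest in MZ cells.

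The share of cells with a UMI, after each cell was thinned at random to 3000 UMIs, showed the onset along Dcx. Gad2 was found in 17.4% of LGE high-Nestin cells [14.4 to 20.9], in 35.4% of other LGE cells without Dcx, in 66.0% of those with Dcx up to 1.0 and in 78.3% of those with Dcx of 1.0 to 1.5. Above that limit the LGE share stayed between 78.1% and 81.9%. The LGE level of Gad2 was 574 CPM at Dcx of 1.0 to 1.5, and 607, 698 and 677 CPM in the groups above. A share this high can move little as the level rises. In MGE the Gad2 share was 4.43% in high-Nestin cells, 43.5% at Dcx up to 1.0 and 72.1% at Dcx of 2.0 to 2.5, and in CGE 7.59%, 46.7% and 71.9%. The Gad1 share did not level off: in MGE it was 38.1% [34.9 to 41.4] at Dcx of 1.5 to 2.0 and 49.2% [43.9 to 54.5] above 2.5. In LGE it was 22.7% and 34.1%, at the far lower levels of 84.1 and 134.9 CPM. These shares therefore do not compare the timing of Gad1 and Gad2. Free RNA sets a floor to these shares. Barcodes with over 25% of UMIs from Hbb genes, which mark red blood cells, held a UMI of a GABA gene in 4 of 55 cases in MGE, 2 of 20 in CGE and 8 of 60 in LGE, so the high-Nestin shares of MGE and CGE for any GABA gene at their own depth (13.8% and 17.0%) lie within the intervals of that background [2.02 to 17.6 and 1.23 to 31.7], while that of LGE (32.1%) lies above it [5.94 to 24.6]. The median depth of these high-Nestin cells was 9881, 9323 and 8440 UMIs in MGE, CGE and LGE, and that of the red-cell barcodes was 10864, 14167 and 10626 UMIs.

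**Figure D3:**
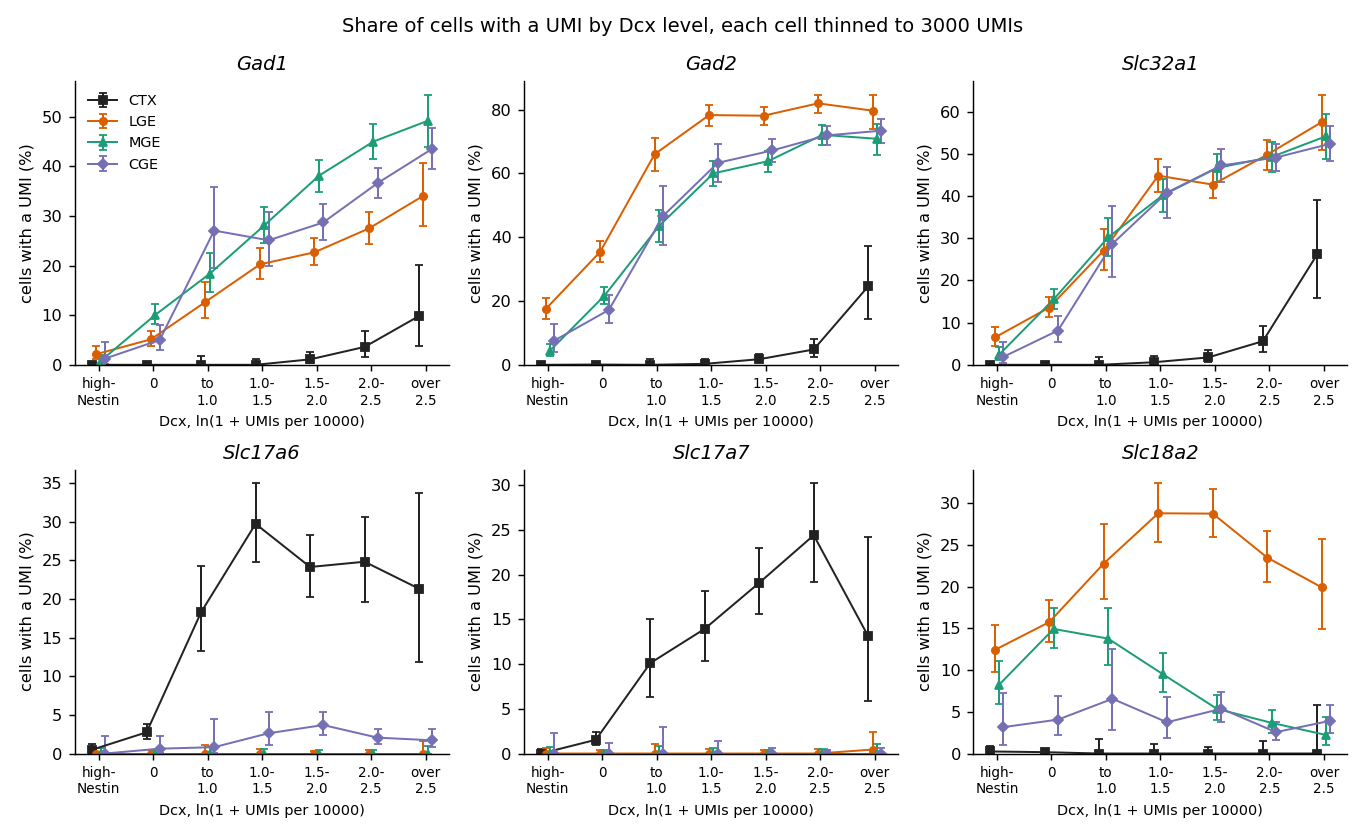
Share of cells with at least 1 UMI of each gene (y axis, percent, from 0) in high-Nestin cells and in the other cells by Dcx level (x axis, ln(1 + UMIs per 10000)), each cell thinned to 3000 UMIs, in the 4 libraries; bars are exact Clopper-Pearson 95% intervals. The Gad2 share levels off early in LGE, near 80%, the lower Gad1 share keeps climbing in the eminences, and the Slc18a2 share in MGE is highest where Dcx is 0 (14.9%) and lowest above 2.5 (2.22%).

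The GABA genes were also more often found together in high-Dcx cells. As each gene alone was found more often there, a higher joint share follows from the single shares. All 3 were detected in 0.719% of LGE high-Nestin cells and in 10.9% of LGE high-Dcx cells at 3000 UMIs. For MGE these shares were 0.201% and 16.5%, and for CGE 0 of 158 cells and 15.1%. Among LGE cells with Gad2, Gad1 was found in 9.28% of high-Nestin cells [4.33 to 16.9] and 26.4% of high-Dcx cells [24.3 to 28.7]. Over all LGE cells of these classes, with or without Gad2, the Gad1 shares were 2.16% and 25.9%. Among high-Dcx cells with Gad2 the share with Gad1 was 45.1% in MGE [42.4 to 47.7] and 38.4% in CGE [35.9 to 40.8], both above that of LGE. Over all high-Dcx cells the Gad1 share was 42.7% in MGE and 36.1% in CGE. The VGAT gene Slc32a1 was found in 20% of LGE high-Nestin cells with Gad1 or Gad2 [12.7 to 29.2] and in 48.0% of such high-Dcx cells [45.5 to 50.4]. Over all LGE cells of these classes its shares were 6.5% and 47.2%. The high-Dcx shares among cells with another GABA gene were thus near those of all high-Dcx cells. In LGE high-Nestin cells they were above those of all high-Nestin cells. At any one depth a gene that is present can be missed, while free RNA can add a UMI, so these are shares of cells with a UMI and not of cells that express the genes.

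Slc18a2, the vesicular monoamine transporter, followed neither kind. It was almost absent from CTX, with 10 UMIs in 3432 cells, and its high-Dcx level was 127.7 CPM in LGE, against 19.0 and 16.2 CPM in MGE and CGE. LGE was thus higher than MGE by a ratio of 6.73 [5.91 to 7.68] and than CGE by 7.88 [6.90 to 9.02], while MGE and CGE did not separate (1.17 [0.982 to 1.40]). From high-Nestin to high-Dcx cells its level differed by a ratio of 0.63 in MGE [0.513 to 0.776], 2.68 in LGE [2.34 to 3.09] and 1.68 in CGE [0.983 to 3.12]. The MGE and LGE intervals lie on opposite sides of 1. The test over the 3 libraries made no call, and 1 library decided the value: without LGE the log2 fold change was -0.09 (edgeR adjusted p = 0.873), and without MGE it was 1.33 (adjusted p = 0.00571).

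By zone, Slc18a2 had the same order in all 3 eminences. It stood at 53.1 CPM in VZ, 222.1 CPM in SVZ and 37.9 CPM in MZ cells of LGE. The same 3 values were 30.3, 50.8 and 6.13 CPM in MGE and 11.8, 94.3 and 4.32 CPM in CGE. The dividing Dcx cells were thus the highest class in each library, and the MZ cells the lowest. In LGE, 45.8% of SVZ cells held a UMI at 3000 UMIs [40.7 to 50.9], against 8.90% of MZ cells [6.61 to 11.7].

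Among high-Nestin cells of LGE and MGE, Slc18a2 was found more often in cells that held Gad2. In LGE high-Nestin cells it was present in 29 of 97 cells with Gad2 (29.9% [21.0 to 40.0]) and in 40 of 459 without (8.71% [6.30 to 11.7]). In MGE these shares were 36.4% of 22 cells [17.2 to 59.3] and 6.95% of 475 cells [4.83 to 9.62]. In CGE they were 1 of 12 cells (8.33% [0.211 to 38.5]) and 4 of 146 (2.74% [0.751 to 6.87]), with intervals that overlap. Red-cell barcodes thinned to the same depth held Slc18a2 in 1 of 56 cases in LGE (1.79% [0.0452 to 9.55]). They held it in 1 of 50 in MGE (2% [0.0506 to 10.6]) and 0 of 19 in CGE. With so few barcodes, not split by Gad2, whether the shares without Gad2 are background could not be told. At full depth, all high-Nestin cells held Slc18a2 in 24.1% in LGE, 18.4% in MGE and 6.29% in CGE. Red-cell barcodes held it in 2 of 60 (3.33%), 2 of 55 (3.64%) and 0 of 20. The LGE and MGE shares lie above the intervals of these barcodes, and the CGE share lies within. In high-Dcx cells the groups with and without Gad2 came together at 3000 UMIs. Their shares were 24.6% [22.5 to 26.9] and 29.6% [25.2 to 34.4] in LGE. They were 3.74% [2.82 to 4.87] and 5.02% [3.48 to 6.97] in MGE. Ddc, which makes dopamine and serotonin from their precursors, had high-Dcx levels of 7.21, 10.4 and 1.80 CPM in LGE, MGE and CGE.

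In CTX it was the glutamate transporters that came on. Slc17a6 was at 2.77 CPM in high-Nestin and 105 CPM in high-Dcx cells, a ratio of 38.0 [24.4 to 62.6]. Slc17a7 was at 1.39 and 86.3 CPM, a ratio of 62.3 [33.6 to 130.6]. Of 9419 genes with at least 10 CPM in either class, 14.4% were at least 2-fold higher in CTX high-Dcx cells. On the log2 scale with 1 CPM added, Slc17a7 differed by 5.19, Slc17a6 by 4.82, Gad2 by 4.18 and Slc32a1 by 4.06. These 4 members reached 10 CPM through the high-Dcx class alone, so that they had to be among the higher genes, and nothing is read from their count. With 1 CTX library this has no replicate check. A glutamate gene was found at full depth in 2.73% of CTX high-Nestin cells, which lies within the interval of the red-cell barcodes of CTX (4 of 162, 2.47% [0.677 to 6.20]).

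The eminences held next to none of the glutamate transporters, except for CGE. In high-Dcx cells Slc17a6 had 0 UMIs in MGE. Its CTX level was 492 times the level that 3 UMIs would give there, and the exact lower limit of the ratio was 399. It had 0 UMIs in LGE too, but only after predicted doublets were removed, as it stood at 2.67 CPM there (40 UMIs) and at 103.8 CPM in CTX when they were kept. CGE held 222 UMIs of Slc17a6 (14.3 CPM), and CTX was higher by a ratio of 7.37 [6.33 to 8.61]. Slc17a7 had 0 UMIs in MGE high-Dcx cells and 2 UMIs each in those of LGE and CGE.

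The 2 glutamate transporters were followed along Dcx in CTX. The Slc17a6 share was 2.74% in cells without Dcx, 18.3% at Dcx up to 1.0 and 29.7% [24.8 to 35.0] at 1.0 to 1.5, and it was no higher beyond that (24.1%, 24.8% and 21.3%). The Slc17a7 share was 1.53%, 10.1% and 13.9% [10.4 to 18.1] in the same cells, 19.1% at 1.5 to 2.0, 24.4% [19.2 to 30.2] at 2.0 to 2.5 and 13.1% [5.84 to 24.2] in the 61 cells above 2.5, where the interval includes the value at 1.0 to 1.5. MZ cells of CTX had 60.5 CPM of Slc17a6 [49.2 to 73.6] and 103.8 CPM of Slc17a7 [88.8 to 120.7]. The SVZ gate found only 14 CTX cells, with 21 UMIs of Slc17a6 (212 CPM [131 to 324]) and 7 of Slc17a7 (70.7 CPM [28.4 to 145.6]). Slc17a6 in MZ was 0.285 times its SVZ level [0.177 to 0.481], while the Slc17a7 ratio of 1.47 had an interval that included 1 [0.698 to 3.71].

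High-Dcx CTX cells with Slc17a6 and those with Slc17a7 held other markers. At 3000 UMIs, 142 cells held Slc17a6 only, 113 held Slc17a7 only, 43 held both and 469 held neither. Eomes, a factor of intermediate progenitors, was found in 75.4% of the cells with Slc17a6 only [67.4 to 82.2] and 23.9% of those with Slc17a7 only [16.4 to 32.8]. Neurod1, which follows it, was found in 63.4% [54.9 to 71.3] and 33.6% [25.01 to 43.1]. Mapt, which encodes the axonal protein tau, had the reverse order, with 2.82% [0.773 to 7.06] and 37.2% [28.3 to 46.8]. Cells with both transporters were like those with Slc17a6 only in Eomes (69.8% [53.9 to 82.8]) and Mapt (6.98% [1.46 to 19.1]). Mki67 was found in 21.8% [15.3 to 29.5] and 7.08% [3.11 to 13.5] of the cells with Slc17a6 only and Slc17a7 only. Neurod6, a factor of cortical projection neurons, was at 97.9% and 95.6%. The 469 cells with neither transporter were near those with Slc17a7 only in Eomes (27.3% [23.3 to 31.6]) and Neurod1 (33.3% [29.0 to 37.7]). They were also near them in Mapt (40.3% [35.8 to 44.9]) and Mki67 (8.53% [6.16 to 11.4]). These shares were thus not particular to cells with Slc17a7.

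**Figure D4:**
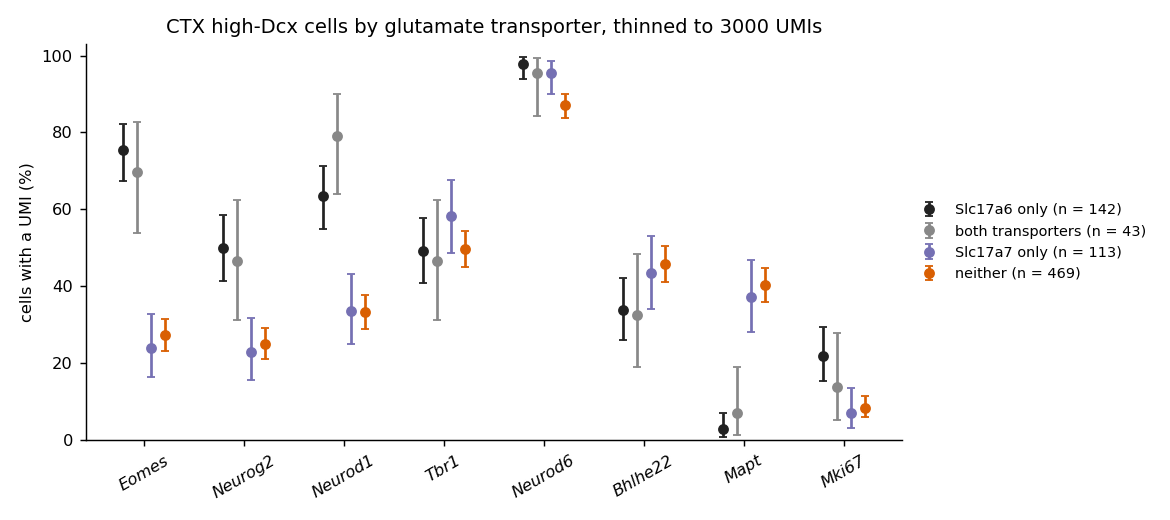
Share of CTX high-Dcx cells (y axis, percent) with a UMI of each marker (x axis), for cells with Slc17a6 only, both transporters, Slc17a7 only or neither, after thinning to 3000 UMIs; points are shares of the 1 library and bars are exact Clopper-Pearson 95% intervals. Eomes and Neurod1 are more frequent with Slc17a6, Mapt is more frequent without it, and Neurod6 is above 80% in all 4 groups.

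A few CTX cells held GABA genes. Gad1 was at 6.82 CPM, Gad2 at 17.1 CPM and Slc32a1 at 20.3 CPM in CTX high-Dcx cells, and 57 of 778 such cells held at least 1 GABA gene. Of the 54 cells that held no glutamate transporter, 34 had a UMI of Dlx1, 38 of Dlx5 and 39 of Lhx6, a factor of interneurons from the MGE. In the 528 cells with glutamate genes only, Dlx1 was found in 2, Dlx5 in 1 and Lhx6 in 0. The share of cells with Gad2 was higher where Dcx was higher, although the cells themselves were spread over the range, with 8 at Dcx of 1.5 to 2.0, 12 at 2.0 to 2.5 and 15 above. Gad2 was found in 24.6% of CTX cells with Dcx above 2.5 [14.5 to 37.3] and 1.75% of those at 1.5 to 2.0 [0.76 to 3.43]. With a Dcx limit of 2.0 in place of 1.5 the share of high-Dcx CTX cells with a GABA gene was 12.1% in place of 6.52%.

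Cells with both kinds of gene were rare. At 3000 UMIs they made up 2 of 767 high-Dcx cells in CTX (0.261% [0.0316 to 0.939]), 0 of 1954 in LGE, which allows a share of up to 0.154%, 0 of 2074 in MGE, which allows up to 0.145%, and 7 of 2213 in CGE (0.316% [0.127 to 0.651]). These limits apply to cells with a UMI of both kinds at this depth and after the removal of doublets, not to cells that express both. At that depth a GABA gene was found in 87.1% of these cells in CGE, 88.4% in MGE, 91.2% in LGE and 6.52% in CTX, and a glutamate gene in 2.44%, 0%, 0.0512% and 38.9%. At full depth the cells with both kinds were 18 CGE cells and 3 CTX cells, with 0 in the other libraries.

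Most of the cells with both kinds were thus CGE cells, where the glutamate genes marked a small group. In CGE, 84 high-Dcx cells held a glutamate gene, all 84 of them Slc17a6, and 66 of them held no GABA gene. Those 66 had Neurod2 in 87.9% [77.5 to 94.6] and Neurod6 in 81.8% [70.4 to 90.2]. CTX cells with glutamate genes only had more, at 98.9% [97.5 to 99.6] and 99.4% [98.35 to 99.9]. Tbr1 was alike, at 83.3% [72.1 to 91.4] in the 66 and 83.3% [79.9 to 86.4] in CTX. Eomes was found in 18.2% [9.76 to 29.6], against 58% [53.6 to 62.2] in CTX. Ebf1 was found in 57.6% [44.8 to 69.7], against 5.49% [3.71 to 7.79] in CTX. At least 1 of Ebf1, Isl1 and Foxp1 was found in 74.2% [62.0 to 84.2] and 65.7% [61.5 to 69.8]. Dlx5 was found in 0 of the 66 cells, and in 82.3% of CGE cells with GABA genes only. At least 1 gene of the forebrain GABAergic list was found in 15 of the 66 (22.7% [13.3 to 34.7]), with Dlx1 in 8. That list was found in 4.36% [2.78 to 6.465] of CTX cells with glutamate genes only and in 98.6% of CGE cells with GABA genes only. Of the diencephalic glutamatergic list, at least 1 gene was found in 36 of the 66 cells, with Lhx9 in 32, Barhl2 in 11 and Tcf7l2, Gbx2 and Foxb1 in 0. The list was as frequent in the CTX cells with glutamate genes only, of which 292 of 528 held a gene of it (55.3% [50.9 to 59.6]) and 286 held Lhx9.

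The 18 CGE cells with both kinds held markers of both. Of these, 16 had a gene of the cortical glutamatergic list and 10 had Dlx1, which was found in 8 of the 66 cells with glutamate genes only. Dlx5 was found in 6 of 18, Neurod6 in 13 and Tbr1 in 11. They had a median of 2 GABA UMIs, against 6 in cells with GABA genes only, and of 3 glutamate UMIs, against 2 in those with glutamate genes only. Only 7 of the 18 had at least 2 UMIs of each kind. Their median depth was 8364 UMIs, near that of cells with glutamate genes only (8424) and above that of cells with GABA genes only (6680). GABA genes were found in 21.4% of CGE high-Dcx cells with glutamate genes [13.2 to 31.7] and in 97.7% of the others [97.0 to 98.3]. The red-cell barcodes of CGE, with a median of 14167 UMIs, held a GABA UMI in 10% of cases [1.23 to 31.7], and as these intervals overlap, the share could not be told apart from that background at this number of barcodes. In CTX, where GABA genes were rare, they were found in 0.565% of the cells with glutamate genes [0.117 to 1.64].

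**Figure D5:**
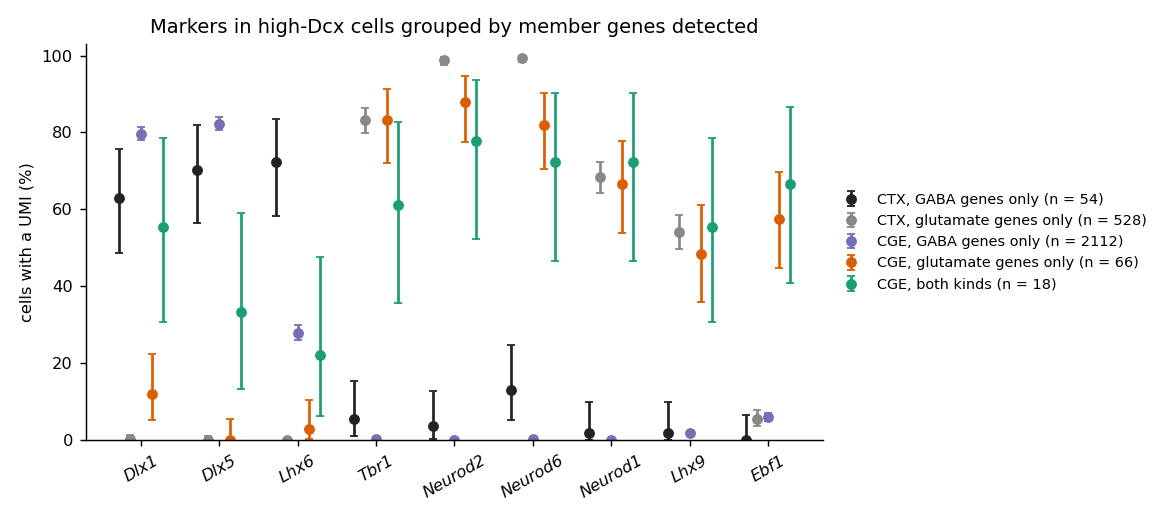
Share of high-Dcx cells (y axis, percent) with a UMI of each marker (x axis) at full depth, for CTX and CGE cells grouped by the GABA and glutamate genes they held; bars are exact Clopper-Pearson 95% intervals. The 18 CGE cells with both kinds have Tbr1, Neurod2, Neurod6 and Neurod1 near the cells with glutamate genes only, and Dlx1 and Dlx5 between the other 2 CGE groups.

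The treatment of doublets bore on these counts, most of all in LGE. Before predicted doublets were removed, 21 LGE cells held a glutamate gene, and 20 of them were among the 258 predicted doublets. These 20 held 47 UMIs of Slc17a6 and 3 of Slc17a7, 15 of them held no GABA gene, 20 had a UMI of Neurod2, Neurod6 or Tbr1, and their median of 6467 UMIs lay below the 7130 of all LGE cells before the removal. With predicted doublets kept, the share of LGE high-Dcx cells with a glutamate gene was 0.626%, and the Slc17a6 level was 2.67 CPM in place of 0. Counted over all classes, 24 CGE, 5 LGE, 4 CTX and 1 MGE cells then held both kinds, against 21, 0, 4 and 1 after the removal. Of the 287 CGE barcodes with 4500 genes or more, which were left out, 24 held a glutamate gene and 13 of those also a GABA gene. Whether any of these barcodes held 2 cells was not tested.

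Other genes of GABA and glutamate handling were found in both directions. In the list of 9 genes of GABA breakdown and uptake, 7 were tested from high-Nestin to high-Dcx cells in the eminences, 2 rose and 4 fell, where 27.7% of all genes rose and 27.1% fell. Slc6a11 (GAT3, a GABA transporter of glia) fell by 3.35 on the log2 scale (SE 0.444, edgeR adjusted p = 0.00177), Aldh9a1 fell by 1.87, Pdxk fell by 1.77 and Aldh5a1, which acts in GABA breakdown, fell by 1.51. The fold of Slc6a11 rests on few UMIs. Its levels in LGE, MGE and CGE were 3.255, 2.27 and 4.13 CPM in high-Nestin cells and 0.288, 0.143 and 0.450 CPM in high-Dcx cells. The list's median log2 fold change was -1.51, beside 0.03 over all genes. In the list of glutamate and glutamine handling, 6 of 17 tested genes rose and 6 fell, shares not far from those of all genes (27.7% and 27.1%). Slc1a3 (GLAST, the glutamate transporter of radial glia) fell by 5.72 (SE 0.224, edgeR adjusted p = 8.38e-05), Slc38a3 fell by 3.49 and Slc1a5 fell by 2.73, while Slc1a1 (EAAC1, the neuronal glutamate transporter) was called higher (edgeR adjusted p = 0.00699). Its high-Nestin level was 0.207 CPM in MGE and 0 in LGE and CGE, and its high-Dcx level was 1.14, 2.88 and 4.25 CPM, so that no fold is given. The list of monoamine and acetylcholine genes had 3 of 15 tested, of which Ddc rose by 1.87 and Maoa, which breaks down monoamines, fell by 1.19.

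Most tested genes of vesicle release and of GABA reception rose, although no test compared the lists with other genes. In the list of the synaptic vesicle cycle 17 of 20 tested genes rose and 2 fell, with a median of 1.77, where 27.7% of all genes rose and 27.1% fell. Syt1, the calcium sensor of release, rose by 5.23 (SE 0.220, edgeR adjusted p = 9.36e-05), Syt4 by 4.25, Rab3c by 3.94 and Rab3a by 3.63. In the list of GABA receptors and chloride transporters 9 of 11 tested genes rose and 1 fell, with a median of 1.88. Of the genes that encode subunits of the GABA-A receptor, Gabrg3 rose by 2.77 (SE 0.705, edgeR adjusted p = 0.0183), Gabrb2 by 2.37 and Gabra2 by 2.30. By zone, this receptor list had 2 of 10 tested genes higher from VZ to SVZ and 9 of 10 higher from SVZ to MZ, with medians of 0.33 and 2.08. Over all genes 18.1% and 23.0% were higher at these steps, so the first of the 2 counts was near the share of all genes. The members' own medians, over the 4 tested, were 2.87 and 0.81 at the same steps.

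The genes with the most similar profile were sought over 12 points (4 libraries with 3 classes each), which share libraries and depth, so the correlations are a description. Gad1 and Slc32a1 were each closest to Gm14204 (r = 0.987 and 0.993) and had r = 0.983 with each other. Gm14204 is a noncoding transcript at chr2:158595472-158610723 on the minus strand, so that 43 bases separate its start from that of Slc32a1, which runs the other way, and the Slc32a1 promoter printed above covers both starts. The level of Gm14204 went from 14.4 to 367 CPM between high-Nestin and high-Dcx cells of MGE, from 6.89 to 302.2 CPM in CGE and from 19.9 to 240.4 CPM in LGE, and was 17.4 CPM in high-Dcx cells of CTX. Gad2 was closest to Nrxn3, Dlx5 and Dlx6os1 (r = 0.985, 0.985 and 0.984). Slc17a6 was closest to Neurod1 (r = 0.995), Nrn1, Lhx9, Tbr1 and Nhlh2, and Slc17a7 to Tuba4a (r = 0.990), Ppp1r14a, Nxph4, Cabp1 and Ttc39b. Slc18a2 was closest to Klhl13 (r = 0.963), Nrip1 and Pbx3. The search covered 5213 genes with at least 50 CPM in 1 of the points.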

How the data were processed

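Droplet 3′ RNA-seq of 4 libraries (CTX, LGE, MGE and CGE, E12.5) was analysed. The authors deposited raw UMI counts per gene and barcode, made with Cell Ranger and aligned to mm10, with default parameters; the submitters' processing notes name version 3.0.0 and the file headers 3.0.2. The deposited matrices had no filter on genes, mitochondrial share or doublets. The annotation release is not given in the sources used here, and GENCODE M21 (GRCm38) was used for positions, by gene ID.

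Barcodes with more than 1500 and fewer than 4500 genes, a mitochondrial share below 5% and an Hbb share below 1% were kept, and doublets predicted from simulated pairs were removed at 0.8% per 1000 barcodes. This step bears on the rare cells with both kinds of gene. The limits of 1.5 and 0.5 on gate genes were on ln(1 + UMIs per 10000). Shares used cells thinned to 3000 UMIs unless stated, with shallower cells left out. Shares carry Clopper-Pearson and CPM and ratios Poisson exact 95% intervals, which cover counting error only; a count of 0 was given a limit of 3 counts. Class differences were tested on sums per library and class with edgeR 4.0.16 (TMM, filterByExpr, quasi-likelihood, library as block, Benjamini-Hochberg over all genes tested, adjusted p under 0.05) in R 4.3.3, with DESeq2 1.42.0 as an alternative. The script was tested on simulated data. Libraries of different regions served as replicates, so p-values measure the spread between these regions.

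The members, the gene lists and the tests were chosen with earlier results of these data known. The genes named were the 6 members, the 4 genes with the largest change in each list, and the 5 closest profiles; Ddc levels, the marker genes and single values outside that rule were chosen after values were seen. Some genes that this rule would name are not reported here.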

Additional observations from a re-analysis of the deposited data

Results flagged for a closer look

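Slc18a2 moved in opposite directions from high-Nestin to high-Dcx cells in 2 regions: the ratio of CPM was 2.68 in LGE and 0.63 in MGE. Each region had 1 library, so the difference was not tested.

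In LGE, 20 of the 258 predicted doublets held a UMI of Slc17a6 or Slc17a7, where MGE had 0 of 242 and 1 kept LGE cell did. These barcodes were outside the comparisons. Whether they are pairs of cells or single cells was not tested.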

How the results depend on the processing

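Of 156 recomputed log2 fold changes of the members, 152 kept their direction and their side of the threshold. Slc18a2 from high-Nestin to high-Dcx was -0.09 without LGE and 1.33, and called, without MGE. Without the library block, Slc18a2 from VZ to SVZ (2.02, adjusted p = 0.0889) and Gad2 from SVZ to MZ (0.75, adjusted p = 0.162) kept their direction but were not called. Thinning to 3000 UMIs gave 1214 genes higher and 1116 lower in SVZ than VZ, in place of 2105 and 1984, and 1703 higher and 1765 lower in MZ than SVZ, in place of 2676 and 2656; a limit of 2.0 gave 1462 and 1629 at that last step. Leaving out each library in turn gave 1355 to 1528 genes higher and 1154 to 1601 lower in SVZ than VZ, and 1741 to 2247 higher in MZ than SVZ, with the lowest of each without LGE. The cause of these shifts was not tested.

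Shares of high-Dcx cells moved with depth. With each cell at its own depth the share with a GABA gene was 99.1%, 98.0% and 94.9% (LGE, MGE and CGE), that with a glutamate gene 68.2% in CTX and 3.74% in CGE, and that with both kinds 0.802% in CGE. At 2000 UMIs the GABA shares were 82.4%, 80.8% and 78.6%, and the glutamate shares 31.5% and 1.34%. With 2 UMIs of each kind required they were 72.9%, 70.1% and 69.5%, and 13.6% and 0.994%, with both kinds in 0% of CTX and 0.0452% of CGE cells. A limit of 2.0 gave GABA shares of 12.1% in CTX and 93.6%, 91.2% and 88.7% in the eminences, and a limit of 1.0 gave 86.8% in MGE. In LGE the glutamate share was 0.626% with doublets kept, 0.441% with no upper gene limit and 0% at double the doublet rate; in MGE the GABA share was 89.9% with doublets kept. The other 81 of 108 shares stayed within the counting interval, and so did 82 of 120 levels.

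Classes of one library were paired in the main test by the library block. Between libraries, no paired analysis was possible because each region had 1 library and the labels give no number that links them. LGE, with the most SVZ cells, was the library on which the zone counts depended most. At 3000 UMIs, genes with few UMIs per cell are missed in many cells that express them.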
